A study of Rattus norvegicus with 60 samples.

Results

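The subject is the RNA difference between rat hippocampus 24 h after threat training and naive hippocampus. The members are 15 of the 34 RNA libraries of a series of 60 samples: Threat_24hr_RNA replicates 1 to 6 and Naive_RNA replicates 1 to 9. Of 22865 genes in the RNA table, 13153 had an FPKM (fragments scaled to gene length and library size) of at least 1 in at least 5 of the 34 libraries and were tested. All animals were Sprague-Dawley rats aged 90 to 120 d, the tissue was the CA1 area of the hippocampus in every group, and the labels name no transgene or drug. The threat animals were taken 24 h after contextual threat recognition training, n = 6. The naive animals, n = 9, have no time in their labels, and what the naive rats underwent is not described. Side groups used for reference are place 24 h (n = 5) and threat 1 h (n = 8). The labels do not say what a place animal experienced as against a threat animal. Separate animals per replicate are not stated either. A p-value below therefore reflects how much libraries vary within groups, and part of that variation could be technical. For RNA this spread is taken from all 34 libraries, including groups outside the comparison. Tests against all 9 naive libraries treat these as 1 group.

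CA1 is the output field of the hippocampal circuit, made mostly of pyramidal neurons with interneurons and glia between them, and it is required for learning a context. Training switches on immediate early genes such as Fos and Egr2 within the first hour, and most of these transcripts have decayed again by the next day. Splicing of most neuronal transcripts takes place in the nucleus, where SR proteins, their kinases and speckle proteins act on the new RNA. In a bulk tissue sample, fewer cells of a type and less RNA per cell cannot be told apart.

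The deposited FPKM values carry no read depth. Low values that step by whole fragments gave relative depths of 0.936 to 1.22 in the naive and 0.892 to 1.09 in the 24 h threat libraries. Between 12585 and 12756 genes reached 1 FPKM in a naive library and between 12472 and 12640 in a 24 h threat library. The FPKM of all genes summed to 256901 to 267268 in naive and to 268661 to 274775 in threat libraries, so the ranges of the sums did not overlap. The naive libraries stood apart as a pair of sets, replicates 1 to 4 and replicates 5 to 9. Between these sets 2501 of the 13153 genes differed (1132 higher and 1369 lower in 5 to 9; limma, Benjamini-Hochberg adjusted p under 0.05), although no label names a batch. The main results below are therefore given against all 9 naive libraries and against naive 5 to 9 or both sets. A call with no set named is against all 9. These comparisons share the 6 threat libraries. CA1 markers were present: the median FPKM of Wfs1 was 120 in naive and 114 in threat libraries, and that of Neurod6 was 55.2 and 59.8.

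The largest falls 24 h after threat training were those of Leng8 and Snhg11. Leng8 encodes a nuclear protein linked to RNA export and retention, and Snhg11 is a long noncoding RNA that hosts small nucleolar RNAs in its introns. The 250 bases before the start of each are shown because these genes had the largest falls. They come from RefSeq on build GRCr8: Leng8 lies at chr1:79124739-79124988 on the minus strand and Snhg11 at chr3:167451022-167451271 on the plus strand. Capitals mark the matches to 8 short motifs searched on both strands.

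Leng8: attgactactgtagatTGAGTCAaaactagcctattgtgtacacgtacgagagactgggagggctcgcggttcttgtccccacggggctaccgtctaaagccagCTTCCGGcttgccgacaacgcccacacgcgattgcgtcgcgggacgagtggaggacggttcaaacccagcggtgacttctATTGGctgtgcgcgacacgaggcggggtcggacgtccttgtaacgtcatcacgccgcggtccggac
Snhg11: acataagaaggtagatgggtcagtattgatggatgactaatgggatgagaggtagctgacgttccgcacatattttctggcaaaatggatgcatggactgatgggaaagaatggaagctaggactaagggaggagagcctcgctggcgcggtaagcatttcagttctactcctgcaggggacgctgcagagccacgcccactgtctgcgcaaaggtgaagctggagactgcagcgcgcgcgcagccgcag

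The Leng8 window held TGAGTCA 234 bases before the start, CCGGAAG on the reverse strand at 146 and CCAAT on the reverse strand at 66. The Snhg11 window held none of the 8. Among 8095 tested genes with a RefSeq promoter, 2.77% held TGAGTCA, 14.8% CCGGAAG and 35.3% CCAAT. The other motifs searched were TGACGTCA, TGACGCAA and CACGTG, whose shares are given with the neuropeptide genes, and GGGCGGGG (30.7%) and ATGGCGGC (1.99%). None of the 8 contains another. The deposited table places Leng8 (ENSRNOG00000018642) at chr1:74814349-74826049 on the plus strand and Snhg11 (ENSRNOG00000036802) at chr3:160736978-160743135 on the minus strand, in rn5 coordinates. Both genes lie in opposite orientation in rn5 and GRCr8, as do their neighbours. The end of Leng8 overlaps Leng9 on the other strand in rn5. The libraries were directional, but whether the counting used strand is not given in the sources used here.

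Leng8 stood at 28.8, 31.2, 35.2 and 37.9 FPKM in naive replicates 1 to 4 and at 17.5, 20.2, 14.5, 18.5 and 13.9 in replicates 5 to 9. In the 6 threat libraries it ranged from 9.08 to 10.8 with a median of 10.1. Every threat library was below every naive library, and the naive 5 to 9 libraries lay between. The difference was -1.11 (SE 0.154) on the log2(FPKM + 1) scale (limma, adjusted p = 8.98e-05). It was -1.64 against naive 1 to 4 and -0.69 against naive 5 to 9 (adjusted p = 2.52e-12 and 0.000397).

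Snhg11 stood at 72.8, 77.1, 91.1 and 97.7 FPKM in naive 1 to 4 and at 45.7, 54.6, 46.2, 52.1 and 37.3 in naive 5 to 9. The threat libraries ranged from 25.6 to 29.3, median 27.8. Again no threat library reached the lowest naive one. The log2 difference was -1.11 (SE 0.146) against all 9 and -0.74 against naive 5 to 9 (limma, adjusted p = 8.98e-05 and 0.000397).

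At 1 h after threat training neither gene was called lower than naive. Leng8 ranged from 21.8 to 32.7 FPKM (median 28.8) and Snhg11 from 60.2 to 91.5 (median 77.8) in the 8 threat 1 h libraries. Both groups of threat libraries were separate from each other in both genes, and the 24 h level was lower by -1.41 for Leng8 and -1.44 for Snhg11 on the log2 scale (limma, adjusted p = 1.11e-06 for Leng8). Against all 9 naive libraries the threat 1 h level of Leng8 differed by 0.30 (limma, adjusted p = 0.297). That of Snhg11 differed by 0.32 (adjusted p = 0.228), and neither passed the test. In both genes all 8 threat 1 h libraries lay above every library of naive 5 to 9. They overlapped with naive 1 to 4, and none exceeded the highest of that set. The test pools both naive sets, so it cannot say whether the 1 h level differed from either set alone.

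**Figure D1:**
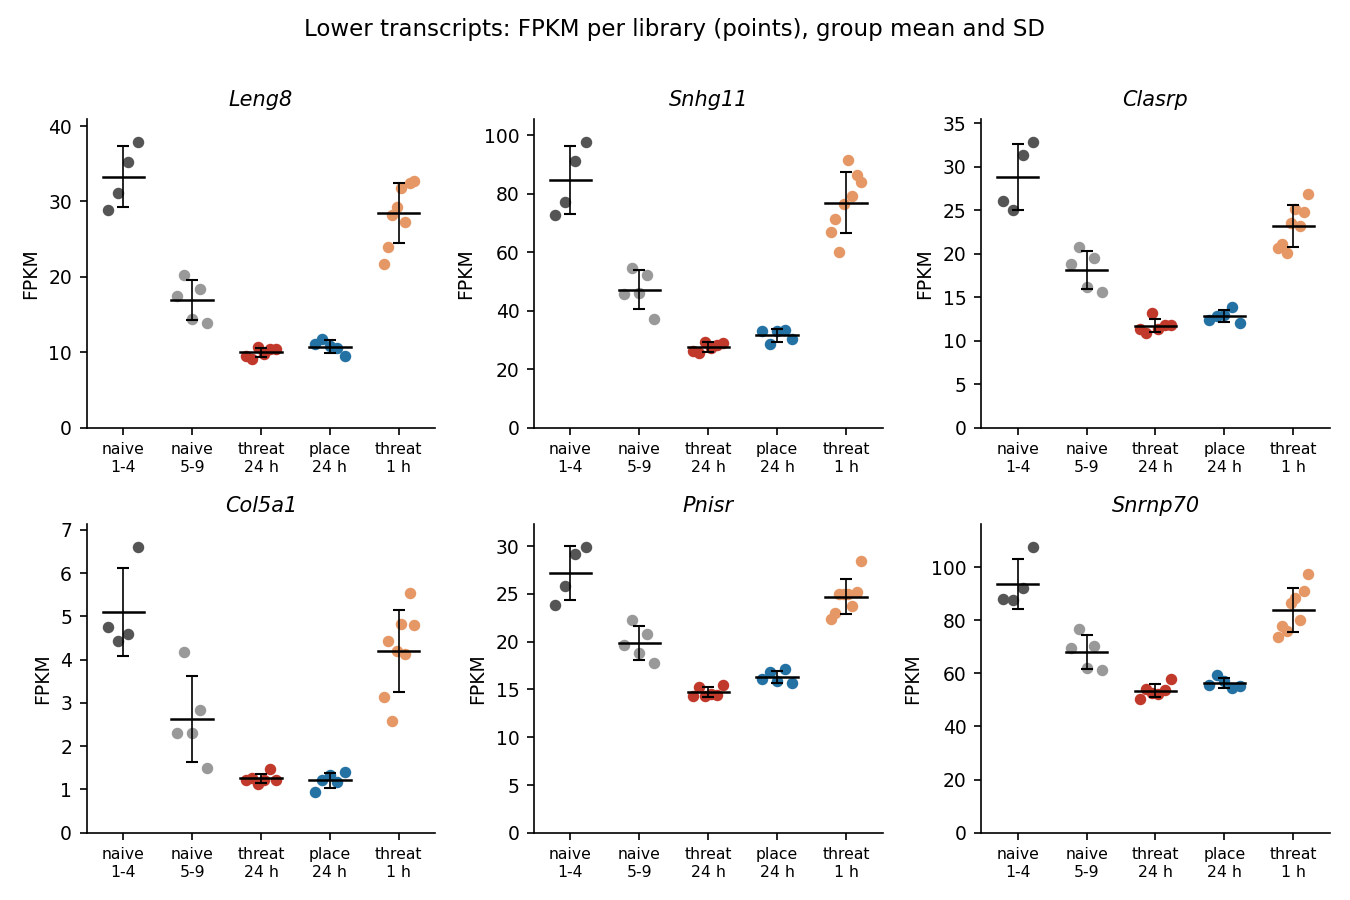
FPKM of 6 genes that were lower in threat 24 h libraries than in naive libraries (Leng8, Snhg11, Clasrp, Col5a1, Pnisr and Snrnp70), with 1 point per library; the line is the group mean and the bar its SD. For each gene the 6 threat 24 h points lie below all 9 naive points, naive 5 to 9 sits under naive 1 to 4 in mean, and place 24 h sits close to threat 24 h.

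Across the genome, 759 genes fell and 568 rose in threat 24 h against all 9 naive libraries (limma, adjusted p under 0.05), which is 5.77% and 4.32% of the 13153 tested. Against naive 1 to 4 alone, 1922 genes were lower (14.6%) and 2051 higher (15.6%). Against naive 5 to 9 alone, 57 were lower (0.433%) and 10 higher (0.076%), with 1395 genes at an unadjusted p under 0.05. Of the 759 lower genes, 753 were also called against naive 1 to 4, and of the 568 higher genes, 535 were. The balance moved with the scaling: the 568 rises against 759 falls became a share of rises of 35.5% with median-ratio scaling (458 against 832 falls), 27.6% with quantile normalization (263 against 691) and 13.5% with equal FPKM sums (177 against 1137). Dropping genes under 5 FPKM gave 563 higher and 492 lower, and a fit of the 15 libraries alone gave 104 higher and 285 lower.

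The genes called with the same sign against all 9 naive libraries, naive 1 to 4 and naive 5 to 9 numbered 64, of which 57 were lower (0.433% of the genes tested) and 7 higher (0.0532%). In 49 of the 57 and 5 of the 7 the threat and naive libraries did not overlap at all, against 168 (1.28%) and 43 (0.327%) of all genes tested. The median log2 difference of the 57 was -0.57 against all naive libraries, -0.86 against naive 1 to 4 and -0.36 against naive 5 to 9. Over all genes tested the medians were 0.0114, 0.00936 and 0.00832. The rule chose these genes by the same differences, so their counts and medians describe them and test nothing. The count of 64 rests on a few libraries: it was 22 without naive replicate 8, 25 without naive replicate 5, 37 without threat replicate 1 and 38 without threat replicate 4 or 5.

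**Figure D2:**
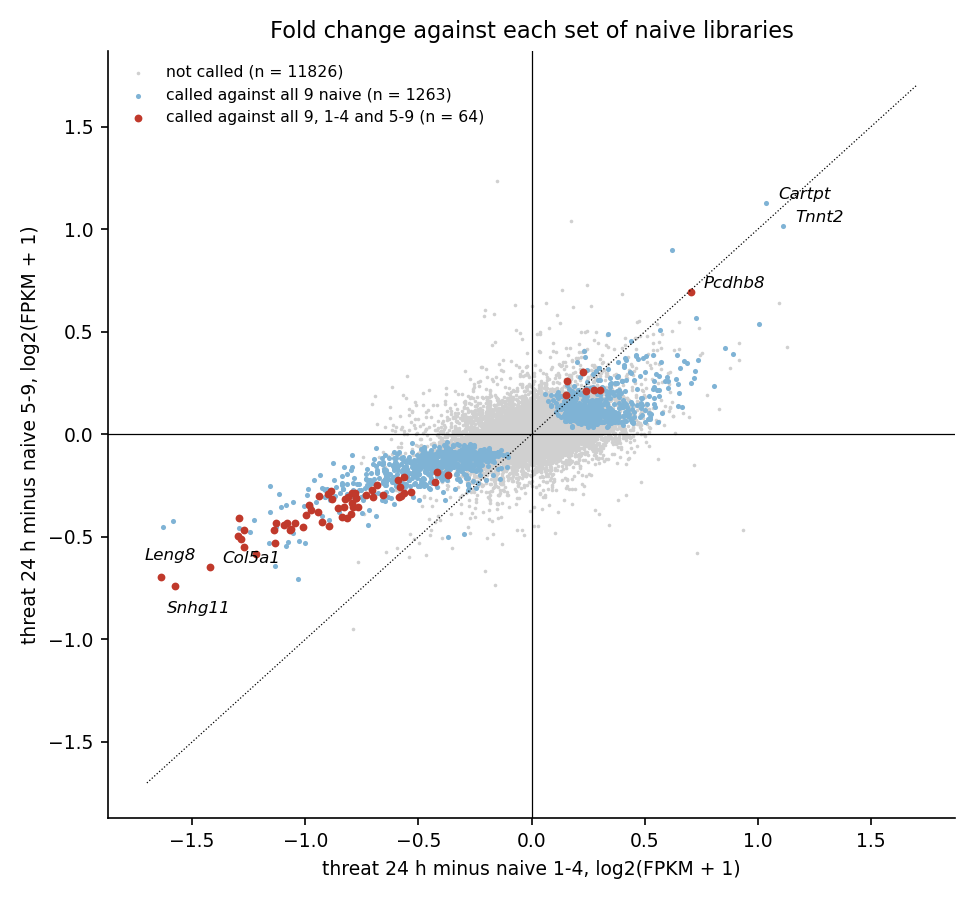
Log2 difference of each of 13153 genes in threat 24 h against naive 1 to 4 (x axis) and against naive 5 to 9 (y axis), on the log2(FPKM + 1) scale; grey genes were not called, blue were called against all 9 naive libraries and red against all 9 and both sets. The dotted line marks equal differences: most red genes lie lower left, from Leng8 at -1.64 and -0.69, and nearer to 0 on the y axis than on the x axis.

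Many splicing genes fell. Of 32 tested kinases and other splicing-associated proteins, 18 fell, 14 were not called and none rose against all naive libraries (limma, adjusted p under 0.05), where 5.77% of all genes tested fell. Against naive 1 to 4, 20 were lower and 4 higher, and against naive 5 to 9, 8 were lower. The list's median log2 difference was -0.19, -0.26 against naive 1 to 4 and -0.12 against naive 5 to 9, where all genes tested had a median of 0.0114 against all 9. Threat libraries lay below all naive libraries in 14 of the 32, where they did in 1.28% of all genes tested. Members called against both naive sets were 8: Clasrp, Pnisr, Luc7l3 and Thoc1, which the naming rule gives, and Clk2, Clk4, Srrm2 and Snrnp70, named after their values were seen. The counts of 18 became 18 to 20 under the 3 other scalings.

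Clasrp, an arginine-serine-rich protein that binds the CLK splicing kinases (ENSRNOG00000046000, rn5 chr1:81757541-81781715), stood at 26.1, 25.1, 31.3 and 32.9 FPKM in naive 1 to 4. In naive 5 to 9 it stood at 18.8, 20.7, 16.1, 19.5 and 15.7, and in threat 24 h it ranged from 10.9 to 13.2, median 11.6. The groups did not overlap. The difference was -0.87 (SE 0.116) on the log2 scale (limma, adjusted p = 8.98e-05) and -0.58 against naive 5 to 9 (adjusted p = 0.000881).

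Pnisr, a serine-rich splicing-associated protein, stood at 23.8, 25.8, 29.2 and 29.9 FPKM in naive 1 to 4, at 19.6, 22.3, 18.8, 20.8 and 17.7 in naive 5 to 9, and at 14.3 to 15.5 in threat 24 h. Every threat value was under the lowest naive value. Its log2 difference was -0.60 and, against naive 5 to 9, -0.40 (limma, adjusted p = 8.98e-05 and 0.00155). Snrnp70, the U1 snRNP component that recognises the splice donor, ranged from 61.2 to 108 FPKM in naive (median 76.7) and from 50.4 to 58.1 in threat 24 h (median 53.2). Those ranges were also separate, with a log2 difference of -0.54 and of -0.34 against naive 5 to 9 (adjusted p = 0.000492 and 0.0421).

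Clk2 and Clk4 are kinases that phosphorylate SR proteins. Clk4 ranged from 9.12 to 16.4 FPKM in naive (median 10.3) and from 6.81 to 8.09 in threat 24 h (median 7.35), a log2 difference of -0.56 that was -0.35 against naive 5 to 9. Clk2 ranged from 7.47 to 11.3 (median 8.37) and from 5.96 to 6.92 (median 6.28), a difference of -0.39 that was -0.28 against naive 5 to 9. Neither gene's ranges overlapped (limma, adjusted p = 0.000287 for Clk4 and 0.000433 for Clk2). Srrm2, a large scaffold of nuclear speckles, ranged from 30.4 to 57.6 in naive and from 25.1 to 29 in threat 24 h, a difference of -0.59 that was -0.30 against naive 5 to 9. Luc7l3, a U1-associated factor, and Thoc1, a subunit of the complex that couples transcription to RNA export, differed by -0.42 and -0.57, and by -0.30 and -0.39 against naive 5 to 9.

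Among the SR splicing factors themselves 7 of 12 fell, 5 were not called and none rose, where 5.77% of all genes tested fell. The 7 were Srsf2, Srsf5, Srsf6, Srsf7, Srsf9, Srsf11 and Tra2a, of which Srsf2, Srsf7 and Tra2a are named only to complete the count. The list median was -0.18 against all 9, -0.22 against naive 1 to 4 and -0.08 against naive 5 to 9, and no SR factor was called against naive 5 to 9, while 8 were lower and 1 higher against naive 1 to 4. Srsf5 ranged from 103 to 120 FPKM in naive (median 113) and from 88.7 to 107 in threat 24 h (median 99.8). Its libraries overlapped, and the log2 difference was -0.19 (limma, adjusted p = 0.00823) and -0.20 against naive 5 to 9 (adjusted p = 0.0673). Srsf11 differed by -0.25 against all 9 and by -0.11 against naive 5 to 9. A fit of the 15 libraries alone ended the calls of Srsf6, Srsf9 and Srsf11.

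The 57 also held genes outside these lists. Akap8l, a nuclear matrix protein, ranged from 24.8 to 48.3 FPKM in naive (median 33.4) and from 17.7 to 21.2 in threat 24 h (median 19.8). The groups did not overlap, and the log2 difference was -0.80, and -0.53 against naive 5 to 9 (limma, adjusted p = 8.98e-05 and 0.00155). ZFP692, a zinc finger protein, ranged from 6.72 to 16.4 in naive and from 4.53 to 5.96 in threat 24 h, a difference of -0.85 that was -0.51 against naive 5 to 9. Ccdc84, a partner of the splicing machinery, differed by -0.76, and by -0.46 against naive 5 to 9. Dhx16, a spliceosomal helicase, Ccnl2, a cyclin of nuclear speckles, Pan2, a deadenylase subunit, and Nktr, a cyclophilin with an arginine-serine tail, are named after their values were seen. Their log2 differences were -0.41, -0.63, -0.44 and -0.56, and against naive 5 to 9 -0.28, -0.34, -0.25 and -0.29. Naive and threat ranges were separate for Dhx16 and Nktr and overlapped for Ccnl2 and Pan2.

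Collagen genes, which encode the structural proteins of the extracellular matrix, formed another list with many calls. Of 34 collagens found in the table, 11 did not reach the level filter, and of the 23 tested 13 fell, 10 were not called and none rose. The share of falls over all genes tested was 5.77%. The collagens' median log2 difference was -0.39, -0.57 against naive 1 to 4 and -0.24 against naive 5 to 9. With a pseudocount of 0.1 these medians were -0.64, -0.88 and -0.44. The members called against both naive sets were 4: Col5a1, Col11a2, Col16a1 and Col19a1. The number of falls was 12 to 14 under the other scalings.

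Col5a1, a regulator of fibril thickness (ENSRNOG00000008749, rn5 chr3:11789103-11935751), stood at 4.76, 4.43, 4.59 and 6.61 FPKM in naive 1 to 4. It stood at 2.31, 4.17, 2.31, 2.84 and 1.5 in naive 5 to 9 and at 1.23, 1.27, 1.12, 1.23, 1.47 and 1.21 in threat 24 h. The threat libraries lay close together under all naive libraries, with the lowest naive library just above them. The log2 difference was -0.99 (SE 0.165), and -0.65 against naive 5 to 9 (limma, adjusted p = 0.000341 and 0.0325).

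Col11a2 ranged from 17.6 to 34.5 FPKM in naive (median 24.2) and from 13.3 to 16.6 in threat 24 h (median 15.3). Its log2 difference was -0.73, and -0.46 against naive 5 to 9 (limma, adjusted p = 0.000287 and 0.0213). The ranges were separate for Col11a2 and Col19a1. Col16a1, which differed by -0.65, had 1 naive library within the threat range. The basement membrane list held 3 falls among 26, with Agrn, the heparan sulphate proteoglycan agrin, at 10.5 to 20.6 FPKM in naive and 7.69 to 9.5 in threat 24 h. Agrin's log2 difference was -0.54, and it was -0.29 against naive 5 to 9, which did not pass (limma, adjusted p = 0.00101 and 0.0699).

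Some vessel and pericyte markers were also lower, where 5.77% of all genes tested fell. Of 23 endothelial and mural markers 6 fell, 17 were not called and none rose: Rgs5, Pdgfrb, Vtn, Slco1a4 and, named only to complete the count, Abcc9 and Kcnj8. Their summed FPKM ranged from 248 to 291 in naive 1 to 4, from 210 to 253 in naive 5 to 9 and from 194 to 224 in threat 24 h, and 13 members were called lower against naive 1 to 4 and none against naive 5 to 9. Rgs5, a pericyte marker, ranged from 18.3 to 38.6 in naive and from 16.3 to 22.2 in threat 24 h, a log2 difference of -0.50 (limma, adjusted p = 0.0124). The call of Vtn ended without threat replicate 5, and that of Slco1a4 in 6 of the 15 fits that leave out a library. The part of vessel cells in the collagen result was not tested. None of 10 meningeal markers was called.

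Some genes of chromatin marks fell, where 5.77% of all genes tested did. Hdac10, a deacetylase of polyamines and proteins, stood at 5.94, 6.31, 6.97 and 7.47 FPKM in naive 1 to 4, at 3.84, 5.06, 4.35, 3.84 and 3.27 in naive 5 to 9 and at 2.1 to 3.2 in threat 24 h. No threat library reached the lowest naive one, and the log2 difference was -0.73 (SE 0.116), and -0.47 against naive 5 to 9 (limma, adjusted p = 0.000252 and 0.0118). In the acetylation list 4 of 25 fell and none rose, with Hdac7 at -0.40, and at -0.24 against naive 5 to 9 (adjusted p = 0.24). Among 39 histone methylation genes 10 fell and none rose. Dot1l, the H3K79 methyltransferase, ranged from 2.65 to 5.55 FPKM in naive and from 2.31 to 2.64 in threat 24 h, a log2 difference of -0.47 that was -0.21 against naive 5 to 9 (adjusted p = 0.00255 and 0.17). The list's median was -0.04, close to the median of all genes.

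The DNA methylation and demethylation list had 3 falls and 1 rise among 20. Dnmt3a, the de novo methyltransferase, ranged from 3.24 to 4.37 FPKM in naive (median 3.85) and from 2.93 to 3.33 in threat 24 h (median 3.16). Its libraries overlapped at the edge, with a log2 difference of -0.21 (limma, adjusted p = 0.00358) and of -0.16 against naive 5 to 9 (adjusted p = 0.169). Apex1, the base excision repair endonuclease, rose by 0.23 (adjusted p = 0.00322). A fit of the 15 libraries alone ended the call of Dnmt3a.

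Signalling and lysosomal genes completed the larger falls called against both sets. Rps6kb2, a ribosomal S6 kinase, ranged from 6.09 to 18.2 FPKM in naive (median 8.48) and from 4.81 to 6.06 in threat 24 h (median 5.55), a log2 difference of -0.80. Idua, the lysosomal alpha-L-iduronidase, ranged from 6.67 to 17.3 (median 9.32) and from 4.47 to 5.61 (median 5.41), a difference of -0.85. Fcho1, an initiator of clathrin-coated pits, ranged from 15.6 to 35 (median 18.5) and from 10.2 to 12 (median 11.6), a difference of -0.87. All 3 had separate ranges, and against naive 5 to 9 the differences were -0.41, -0.49 and -0.55 (limma, adjusted p = 0.0213, 0.00637 and 0.00418). Nrbp2 (-0.72), Lime1 (-0.82), Vwa5b2 (-0.74) and Ssh3 (-0.73), a cofilin phosphatase, followed on the log2 scale, each with separate ranges.

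Several of the largest falls against all naive libraries were called against naive 1 to 4 and not against naive 5 to 9. Robo3, an axon guidance receptor, ranged from 0.895 to 5.68 FPKM in naive (median 2.81) and from 0.445 to 1.19 in threat 24 h (median 0.921). Those ranges overlapped. The log2 difference was -0.94 against all 9, -1.58 against naive 1 to 4 and -0.42 against naive 5 to 9 (limma, adjusted p = 0.00683, 1.72e-07 and 0.388). RGD1566251 and Tmem145 were alike in this, with -0.98 and -0.86 against all 9 and no call against naive 5 to 9 (adjusted p = 0.24 and 0.347). The call of Tmem145 ended without threat replicate 5 (-0.79, adjusted p = 0.051 by limma). The axon guidance list had 4 falls among 58 (Robo3, Plxnb3, Plxna3 and Plxnb1), a share near the 5.77% of all genes, and no call against naive 5 to 9. The call of Plxnb1 ended in 10 of the 15 fits that leave out a library.

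The rises called against both naive sets were of 0.17 to 0.27 on the log2 scale apart from Pcdhb8. Ap1s1, a subunit of the clathrin adaptor AP-1 (ENSRNOG00000001415, rn5 chr12:24677439-24688360), stood at 63.4, 59.4, 60 and 59.5 FPKM in naive 1 to 4 and at 58.6, 67.8, 65, 62.4 and 68 in naive 5 to 9. The threat 24 h libraries ranged from 72.7 to 80.5, median 73.3. All 6 were above all naive libraries. The log2 difference was 0.26 (SE 0.0466), 0.30 against naive 1 to 4 and 0.22 against naive 5 to 9 (limma, adjusted p = 0.000862, 9.32e-05 and 0.0441).

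Rpo1-3, a subunit shared by RNA polymerases I and III, ranged from 25.4 to 29.3 FPKM in naive (median 27.6) and from 29.6 to 33.6 in threat 24 h (median 32.7), without overlap, a log2 difference of 0.22. Psmc3ip, a recombination cofactor, ranged from 2.55 to 3.74 (median 3.51) and from 3.82 to 4.43 (median 4.24), also without overlap, a difference of 0.27. Mrp63, a mitochondrial ribosomal protein, ranged from 12.1 to 15.2 (median 12.6) and from 13.7 to 16.4 (median 15.4), and its ranges overlapped. Pcdhb8, a clustered protocadherin, ranged from 0.443 to 1.81 (median 0.759) and from 1.57 to 2.61 (median 2.38), a difference of 0.70 with overlap. Reads of Pcdhb8 and of Myl6l, which differed by 0.17, could be shared with near-identical copies, so both are uncertain. The remaining gene of the 7 has no symbol. Leaving out naive replicate 5 ended the calls of all 7 rises against both sets.

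Some subunits of the respiratory chain, which supplies the cell with ATP, rose by small amounts, where 4.32% of all genes tested rose. The complex I list was drawn up by gene name and counts Ndufa4. It had 10 rises and no fall among 34 genes. Complexes II to IV had 4 and 0 of 22, and ATP synthase 4 and 0 of 14, and the other genes were not called. Against naive 1 to 4 there were 13, 8 and 5 rises with 1, 1 and 0 falls, and against naive 5 to 9 no calls. The complex I median log2 difference was 0.07, with 0.05 against naive 1 to 4 and 0.08 against naive 5 to 9, beside 0.0114 for all genes. Under quantile normalization 1, 1 and 0 of these rises were called, and under equal FPKM sums 4, 2 and 1. Both scalings also turned the complex I median against naive 1 to 4 to just below 0 (-0.01 and -0.00179). For complexes II to IV quantile normalization gave -0.01 there.

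Ndufa4, a small respiratory chain subunit, stood at 148, 142, 135 and 138 FPKM in naive 1 to 4, at 144, 151, 145, 144 and 149 in naive 5 to 9 and at 156 to 168 in threat 24 h. All threat libraries were above all naive libraries. Its log2 difference was 0.16 (SE 0.0315; limma, adjusted p = 0.00146), and 0.14 against naive 5 to 9, which missed the threshold (adjusted p = 0.059). Ndufab1, the mitochondrial acyl carrier protein, ranged from 52.9 to 60.9 in naive and from 62.6 to 65.2 in threat 24 h, a difference of 0.15 that quantile normalization no longer called. Ndufa9, Ndufa13, Uqcrc2, Cox7c and ATP5G3 differed by 0.13 to 0.22, and a fit of the 15 libraries alone ended each of those calls. Leaving out 1 library ended the call of Atp5g1 in 12 of 15 fits, of Atp5i and Cox5a in 8 each, of Cox5b in 6 and of Atp5l without threat replicate 5. Mitochondrial ribosomal proteins had 7 rises and no fall among 75, with 2 under quantile normalization and none under equal sums. None of 47 cytosolic ribosomal proteins was called against all 9 or naive 5 to 9. In all, 16 were lower and 3 higher against naive 1 to 4, and their median changed sign between the naive sets (-0.12 and 0.07).

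Some protein quality control genes rose, where 4.32% of all genes tested did. Of 30 proteasome subunits 12 rose, 18 were not called and none fell, and of 30 chaperones 11 rose, 18 were not called and 1 fell. Against naive 1 to 4, 21 proteasome subunits were higher, and 22 chaperones were higher and 2 lower. The medians were 0.12 and 0.15 against all 9, 0.17 and 0.26 against naive 1 to 4, and 0.06 and 0.06 against naive 5 to 9, where no member was called. Quantile normalization left 3 and 1 of these rises and equal FPKM sums 4 and 2. Psmb3, a proteasome core subunit, stood at 21.9, 22.3, 21.1 and 24.7 FPKM in naive 1 to 4, at 25.4, 26.5, 27.1, 27.3 and 29.4 in naive 5 to 9 and at 28.9 to 32.2 in threat 24 h. The threat range overlapped only with the highest naive library. Its log2 difference was 0.24 against all 9 (limma, adjusted p = 0.00877) and 0.13 against naive 5 to 9 (adjusted p = 0.391).

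Hsp90ab1, a constitutive cytosolic chaperone, ranged from 304 to 390 FPKM in naive (median 372) and from 390 to 413 in threat 24 h (median 400), the lowest threat library just above the highest naive one, a log2 difference of 0.17 that was 0.07 against naive 5 to 9. Hsf1, the transcription factor of heat shock genes, went the other way, from a naive range of 5.36 to 10.2 to a threat range of 5.59 to 6.34, a difference of -0.31 (limma, adjusted p = 0.0134) that was -0.12 against naive 5 to 9 (adjusted p = 0.516). The endoplasmic reticulum folding list had 4 rises among 24, none of which held under quantile normalization or equal FPKM sums. A fit of the 15 libraries alone ended the calls of Psmb3, Hsp90ab1 and Hsf1.

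**Figure D3:**
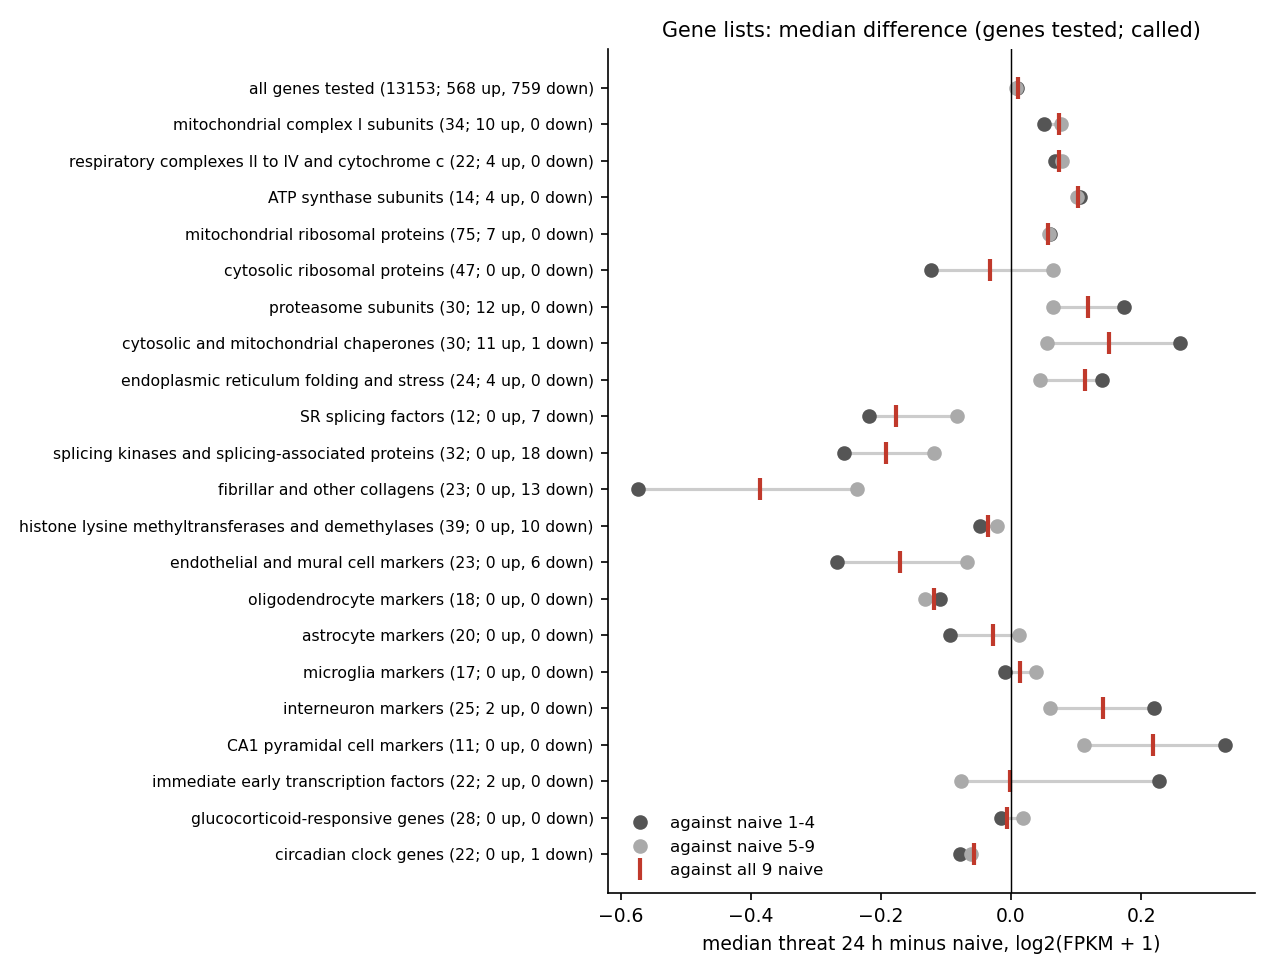
Median log2 difference of threat 24 h from naive for 22 gene lists, against naive 1 to 4 (dark points), naive 5 to 9 (light points) and all 9 (red ticks), with the counts of members called. Collagens (-0.57 and -0.24) and splicing lists lie left of 0 in both sets, while the chaperone median is 0.26 and 0.06; the complex I median against naive 1 to 4 turned to just below 0 under quantile normalization and equal sums.

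The 12 largest rises with a symbol were those of Cartpt, Tnnt2, Crabp1, Htr2c, Pcdhb8, Crym, Fam70a, Ociad2, Cadps2, Tac1, Tpbg and GRIN3A. Of 27 neuropeptide precursors and granins 3 rose, Cartpt, Tac1 and Scg2, and none fell. Scg2, secretogranin II, differed by 0.33, a call that ended in 10 of the 15 fits that leave out a library. None of the 12 was called against naive 5 to 9 apart from Pcdhb8. The promoters of Cartpt and Tac1 are printed because cAMP-response sequences are well known in front of neuropeptide genes. On GRCr8 the RefSeq windows lie at chr2:32991236-32991485 on the minus strand and chr4:36645333-36645582 on the plus strand, with motif matches in capitals.

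Cartpt: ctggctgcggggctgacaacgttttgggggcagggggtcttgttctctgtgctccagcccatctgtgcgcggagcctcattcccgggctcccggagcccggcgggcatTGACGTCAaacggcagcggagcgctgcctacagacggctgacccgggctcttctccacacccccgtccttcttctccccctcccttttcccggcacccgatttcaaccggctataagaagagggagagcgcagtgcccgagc
Tac1: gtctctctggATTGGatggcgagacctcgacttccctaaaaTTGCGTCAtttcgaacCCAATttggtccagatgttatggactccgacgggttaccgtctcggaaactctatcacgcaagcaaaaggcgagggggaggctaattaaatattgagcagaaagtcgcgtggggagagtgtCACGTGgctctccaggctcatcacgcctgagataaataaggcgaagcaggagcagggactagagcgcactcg

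The Cartpt window held the palindrome TGACGTCA 142 bases before the start. The Tac1 window held TGACGCAA on the reverse strand at 209, CCAAT at 193 and, on the reverse strand, at 240, and CACGTG at 72. TGACGTCA was in 26 of 362 matched promoters of the genes that rose (7.18%), in 3.27% of those that fell and in 3.08% of the 8095 tested. TGACGCAA was in 1.1% of the promoters of genes that rose, in 1.15% of those that fell and in 0.951% of those tested. For CACGTG the same shares were 9.94%, 8.08% and 8.54%. The shares are a description of letters in these windows and were not tested.

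Cartpt, the precursor of the CART peptides (ENSRNOG00000017712, rn5 chr2:49285118-49287138), stood at 4.01, 1.48, 1.91 and 1.35 FPKM in naive 1 to 4 and at 2.66, 3.92, 0.816, 1.62 and 1.16 in naive 5 to 9. In threat 24 h it stood at 6.34, 6.72, 2.1, 8.7, 6.51 and 3.5. In 4 of the 6 threat libraries it was above the highest naive library, and in replicates 3 and 6 it was within the naive range. The log2 difference was 1.09 (SE 0.318; limma, adjusted p = 0.0268), 1.03 against naive 1 to 4 and 1.13 against naive 5 to 9 (adjusted p = 0.0465 and 0.209). Leaving out naive replicate 4 or threat replicate 1, 2, 4 or 5 ended the call, with differences from 0.96 to 1.29 over all 15 such fits.

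Tac1, the precursor of substance P (ENSRNOG00000007374, rn5 chr4:33499891-33507855), stood at 6.58, 5.13, 4.12 and 4.06 FPKM in naive 1 to 4 and at 4.43, 7.05, 4.17, 4.96 and 5.42 in naive 5 to 9. In threat 24 h it stood at 9.76, 8.77, 5.96, 9.26, 8.74 and 5.03. The low threat libraries were again replicates 3 and 6. The log2 difference was 0.53 (SE 0.16; limma, adjusted p = 0.0294) and 0.51 against naive 5 to 9 (adjusted p = 0.278), and leaving out naive replicate 3 or 4 or threat replicate 1, 2, 4 or 5 ended the call, with differences from 0.47 to 0.64. Of 25 interneuron markers Tac1 and Nos1, the neuronal nitric oxide synthase, rose. Their summed level ranged from 529 to 595 FPKM in naive 1 to 4, 558 to 672 in naive 5 to 9 and 591 to 672 in threat 24 h.

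GRIN3A, an NMDA receptor subunit that lowers calcium entry, ranged from 1.38 to 3.59 FPKM in naive (median 2.21) and from 2.39 to 4.67 in threat 24 h (median 3.22). The ranges overlapped, and the log2 difference was 0.50 (limma, adjusted p = 0.00853) and 0.35 against naive 5 to 9 (adjusted p = 0.3). Tnnt2, a cardiac troponin, stood at 0.978 FPKM in naive replicate 1, at 1.95 in replicate 6 and at 0.106 to 0.205 in the other naive libraries, and ranged from 0.65 to 2.99 in threat 24 h. Its difference was 1.06, and 1.01 against naive 5 to 9 (adjusted p = 0.00691 and 0.12). Syt4, a vesicle protein of dense-core granules, differed by 0.30, and by 0.15 against naive 5 to 9. Ociad2, a mitochondrial membrane protein, ranged from 11.6 to 36.8 in naive (median 22.5) and from 26.9 to 42.7 in threat 24 h (median 34.4), with overlap through naive replicate 6. Its difference was 0.61, and 0.42 against naive 5 to 9 (limma, adjusted p = 0.00944 and 0.323), and its call held in all 15 fits that leave out a library but not in a fit of the 15 libraries alone. Fam70a had no overlap between groups, from 4.94 to 9.43 in naive and from 9.46 to 13.1 in threat 24 h, a difference of 0.61, and of 0.39 against naive 5 to 9 (adjusted p = 0.0047 and 0.267). Htr2c, Crabp1, Crym, Cadps2 and Tpbg differed by 0.50 to 0.78, and for each at least 5 of the 15 fits that leave out a library ended the call.

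**Figure D4:**
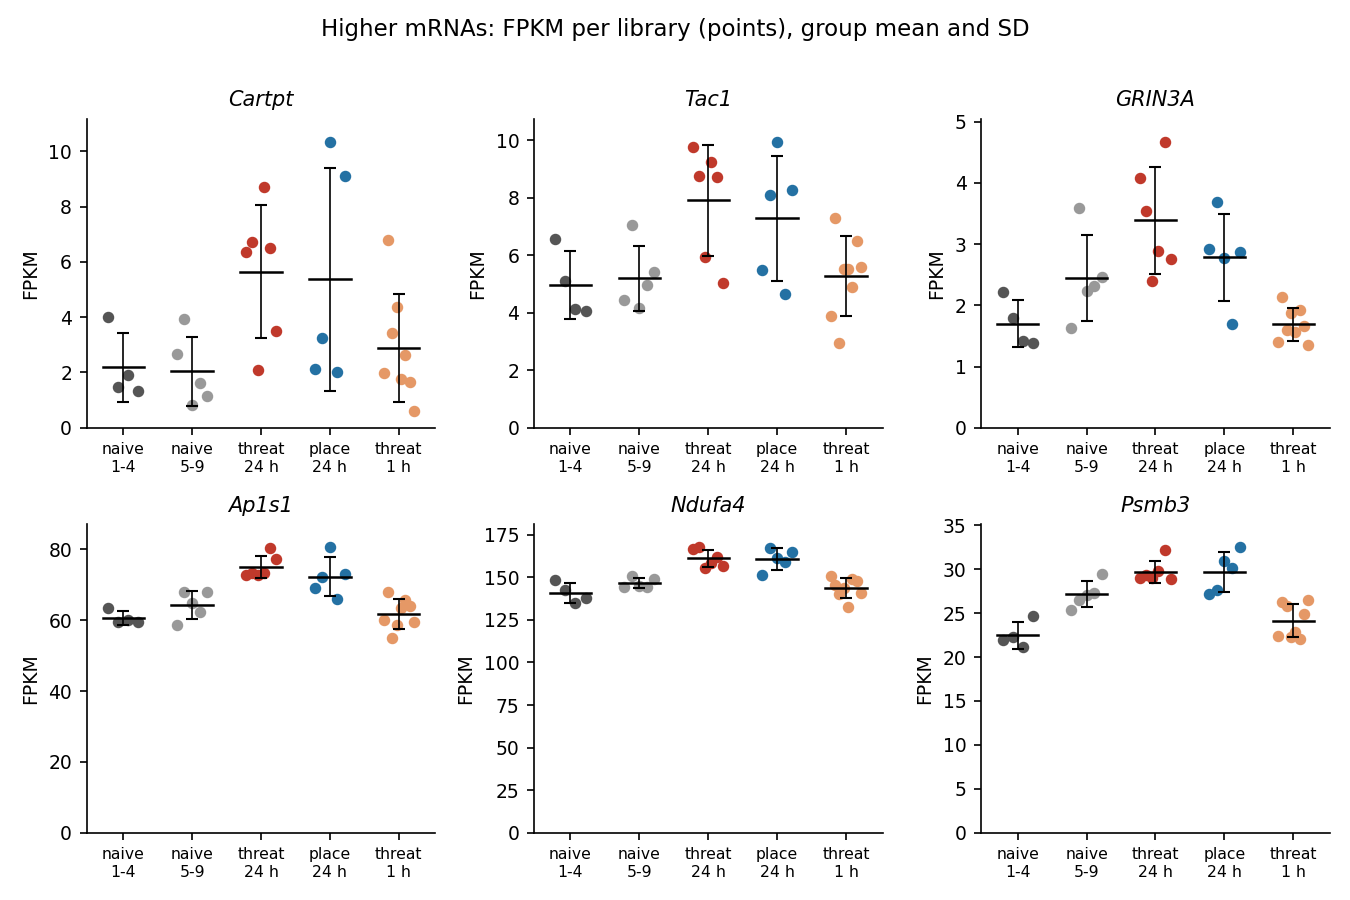
FPKM of 6 genes higher in threat 24 h than in naive libraries (Cartpt, Tac1, GRIN3A, Ap1s1, Ndufa4 and Psmb3), with 1 point per library, a line at the group mean and a bar for the SD. All threat 24 h points of Ap1s1 and Ndufa4 lie above all naive points, whereas Cartpt and Tac1 have replicates 3 and 6 among the naive values.

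Immediate early genes held 2 calls at 24 h, both rises, where 4.32% of all genes tested rose. Of 22 immediate early genes 2 rose, Jun and Fosl2, and the list median was -0.002 against all 9, 0.23 against naive 1 to 4 and -0.08 against naive 5 to 9. Of the 22, 4 were higher and 2 lower against naive 1 to 4. Under quantile normalization 1 of the rises was called and under equal FPKM sums none. In threat 1 h against naive the median was 0.24. Jun, a subunit of AP-1, ranged from 18.4 to 26.9 FPKM in naive (median 23.3) and from 21.8 to 29.2 in threat 24 h (median 26.8). The ranges overlapped, and the log2 difference was 0.25 (limma, adjusted p = 0.0278), with no call against naive 1 to 4 or 5 to 9 (adjusted p = 0.0712 and 0.158). Fosl2 differed by 0.28 and was not called against naive 5 to 9 (adjusted p = 0.437). The call of Jun ended without naive replicate 2, 3 or 5 or threat replicate 1, 2, 5 or 6 (0.22 to 0.30), and that of Fosl2 without naive replicate 2, 3 or 4 or threat replicate 1, 2 or 4 (0.25 to 0.32). Fosb and Egr2, named after their values were seen, differed by 0.10 and -0.01 at 24 h (adjusted p = 0.662 and 0.984), where threat 1 h against naive gave 0.77 and 0.89 (adjusted p = 0.000871 and 0.0222).

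None of 28 glucocorticoid-response genes was called at 24 h, where 5.77% of all genes tested fell and 4.32% rose. Their median was -0.01 (-0.02 against naive 1 to 4 and 0.02 against naive 5 to 9), where threat 1 h gave 0.18. Of the 28, 1 was higher and 2 lower against naive 1 to 4. Sgk1, the kinase induced by corticosteroids and chosen after its values were seen, ranged from 14.4 to 25.3 FPKM in naive (median 17.5) and from 11.4 to 24.7 in threat 24 h (median 20.3). These ranges overlap nearly in full. Its log2 difference was 0.01 at 24 h (limma, adjusted p = 0.98) and 0.91 at 1 h (adjusted p = 0.00178). Pdk4, a mitochondrial kinase chosen in the same way, differed by 0.07 and 1.03. Of 22 clock genes only Per3, a period gene, fell, by -0.36 (adjusted p = 0.0166), with no call against naive 5 to 9 or without threat replicate 5.

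Most synaptic and glial lists held few calls. Metabotropic glutamate receptors (7 tested), genes of GABA receptors and GABA synthesis (18), postsynaptic scaffolds and kinases (36) and glycolysis (13) had none against all 9 or naive 5 to 9. Against naive 1 to 4 they had 2, 6, 5 and 3 higher genes, with 2 lower among the postsynaptic ones. Among 47 potassium channel genes only Kcnt1, a sodium-activated channel, was called, at 5.78 to 11.7 FPKM in naive and 4.04 to 5.58 in threat 24 h, a log2 difference of -0.56, and of -0.35 against naive 5 to 9 (limma, adjusted p = 0.00344 and 0.236). None of 18 oligodendrocyte, 20 astrocyte or 17 microglia markers was called, while 2 oligodendrocyte and 3 astrocyte markers were lower against naive 1 to 4. Oligodendrocyte markers summed to 2847 to 3989 FPKM in naive 1 to 4, 2929 to 4329 in naive 5 to 9 and 2090 to 3806 in threat 24 h, and all 18 differences were negative (median -0.12). None of 11 CA1 pyramidal markers passed (3 were higher against naive 1 to 4), with 9 of 11 differences positive, a median of 0.22, and summed levels of 205 to 510, 374 to 589 and 410 to 563. The parts of oligodendrocytes and pyramidal cells in the gene results were not tested.

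Other groups had 1 to 4 calls each. Of 40 vesicle release genes Syt4 rose and Unc13b, a priming factor, fell, by -0.23 on the log2 scale. Of 29 lysosomal enzymes Gaa, the acid alpha-glucosidase, rose by 0.24, and Idua, Man2b1 and Arsa fell. Gaa ranged from 34.3 to 42.1 FPKM in naive and from 42.3 to 47.9 in threat 24 h, without overlap. Scn2b, a sodium channel beta subunit, rose by 0.34 among 29 sodium, calcium and HCN channel genes, and Grin2c fell by -0.31 among 17 ionotropic glutamate receptor genes. Lss, of 23 cholesterol synthesis genes, fell by -0.22. None of these was called against naive 5 to 9 except Idua. Leaving out 1 library ended the call in 8 of 15 fits for Scn2b, in 10 for Grin2c and, without threat replicate 1, for Gaa.

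Markers of regions next to CA1 were read to see what the dissections held. Called were Cdh24 of 13 CA2 and CA3 markers (log2 difference -0.58), Lef1 of 8 thalamic markers (-0.32) and Fezf2 of 16 cortical and subicular markers (0.45), and none of 9 dentate or 10 striatal markers. The call of Fezf2 ended in 9 and that of Lef1 in 7 of the 15 fits that leave out a library. The dentate median was 0.23 against all 9, -0.09 against naive 1 to 4 and 0.36 against naive 5 to 9. Of the 9 dentate differences, 4 were positive against naive 1 to 4 and 8 against naive 5 to 9. Dentate markers summed to 69.5 to 132 FPKM in naive 1 to 4, 76.1 to 124 in naive 5 to 9 and 96.2 to 180 in threat 24 h. Choroid plexus markers summed to 5.04 to 267 FPKM in naive and to 5.14 to 76.9 in threat 24 h, and none of the 5 was called. None of 9 oligodendrocyte precursor or 3 blood markers was called. The part of neighbouring tissue in the gene results was not tested.

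Whether the 24 h changes went with threat training in particular was addressed by setting threat 24 h against place 24 h. No gene was called (0% of 13153; limma, adjusted p under 0.05), 381 had an unadjusted p under 0.05, and every other setting run also gave 0, with 227 to 716 at an unadjusted p under 0.05. Place 24 h against naive gave 468 lower genes (3.56%) and 196 higher genes (1.49%). That comparison shares the 9 naive libraries with the threat comparison, so likeness between them carries no independent weight. Leng8 stood at 11, 11.8, 10.8, 10.6 and 9.54 FPKM in place 24 h, beside 9.08 to 10.8 in threat 24 h. The threat minus place difference for Leng8 was -0.10 on the log2 scale, with a 95% interval from -0.458 to 0.265. For Snhg11, at 33.1, 28.5, 33.1, 33.3 and 30.3 FPKM in place 24 h, it was -0.19 (-0.53 to 0.151). These intervals do not show that both trainings act alike.

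Over the 57 genes the median log2 difference was -0.57 for threat 24 h against naive, -0.48 for place 24 h against naive and 0.14 for threat 1 h against naive. All 57 were also called in place 24 h against naive, where 3.56% of all genes tested were lower and 1.49% higher. The same naive libraries helped to choose these genes, so that count carries no independent weight. The median threat minus place difference was -0.08, from -0.28 to 0.05. The genes were chosen for low threat values, which by itself moves that difference below 0, so it describes them and tests nothing. For Sgk1 the threat minus place difference was -0.58 with an interval from -0.986 to -0.183 (adjusted p = 1 by limma), with place 24 h at 20.8 to 40.9 FPKM. For Sgk1 the place libraries reached higher levels but overlapped with the threat libraries, and the threat libraries overlapped with the naive ones. Sgk1 was chosen after its values were seen and did not pass the test, so its interval only describes it.

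A level per library was taken for the 57 genes as the median of log2(FPKM + 1) minus each gene's mean over 34 libraries. It ranged from 0.294 to 0.567 in naive 1 to 4 and from -0.202 to -0.00558 in naive 5 to 9. It ranged from 0.133 to 0.408 in threat 1 h, from -0.0202 to 0.303 in place 1 h (n = 6), from -0.400 to -0.287 in place 24 h and from -0.491 to -0.395 in threat 24 h. Naive 5 to 9 thus lay between the threat 1 h and the 24 h libraries, with a small overlap with place 1 h. Threat 24 h was the lowest group with a small overlap with place 24 h. The genes were chosen by the threat and naive values, so only the place and 1 h values are outside the choice.

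**Figure D5:**
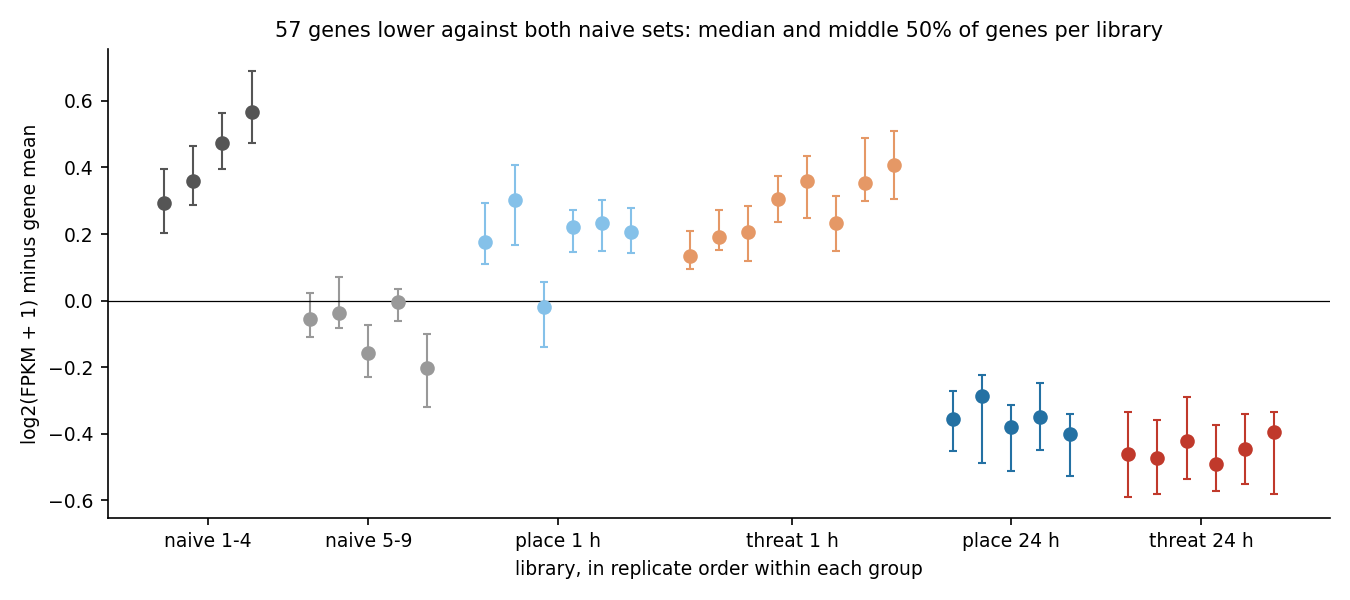
Level of the 57 genes lower against both naive sets in each library of 6 groups: the point is the median and the bar the middle 50% of log2(FPKM + 1) minus the gene's mean over 34 libraries. Naive 1 to 4 lies at 0.294 to 0.567, naive 5 to 9 at -0.202 to -0.00558 and threat 24 h lowest at -0.491 to -0.395.

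For the 57 genes the spread within groups was also read. Their median SD of log2(FPKM + 1) was 0.292 over the 9 naive libraries but 0.136 within naive 1 to 4, 0.113 within naive 5 to 9 and 0.0836 in threat 24 h. Over all genes tested the same medians were 0.132, 0.103, 0.106 and 0.103. The rule chose the 57 by tests on these same libraries, which favours separate naive sets and a small spread within groups. Their spread therefore describes them and tests nothing. The genes lower against all naive libraries were of typical length, with a median of 18550 bases beside 18850 for all genes tested, and lower in level, with 27.4% above 10 FPKM. The genes that rose were shorter (12520 bases) and higher in level (76.2% above 10 FPKM), where 42.2% of all genes tested were above it.

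Over all 34 libraries, the genes whose log2 level followed Leng8 most closely were ZFP692 (Pearson r = 0.991), Atxn2l (0.989), Vwa5b2 (0.986), Akap8l (0.985) and Noc2l (0.984). All 5 belong to the 57. The most opposite were Tceal3 (-0.944), CYCS, which encodes cytochrome c (-0.938), Gdi2 (-0.929), Psip1 (-0.928) and Eif4a2 (-0.919). Their threat 24 h minus naive log2 differences were 0.29, 0.27, 0.17, 0.24 and 0.20. These r values describe libraries that share groups, sets and normalization, and carry no test.

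DNA methylation at the same genes was read from MBD capture, which enriches methylated DNA with a methyl-CpG binding domain, in 3 naive, 3 threat and 4 place samples at 24 h with 3 input samples. With the captured mean at 1 RPKM (reads scaled to bin length and library size) or more, 275 gene bodies were tested and 1 was called (0.364%; limma, 74 at unadjusted p under 0.05). Of 158 windows around gene starts none was called (0%; 37 unadjusted). With a replicate block in the fit, 22 bodies and 16 starts were called. None of the 64 genes called against both naive sets reached that level. At 0.1 RPKM or more, a level chosen after seeing the data, 12473 bodies and 7183 starts were tested and none was called. Unadjusted p was under 0.05 for 2774 bodies and 693 starts. Bodies were tested for 62 of the 64 and starts for 32.

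Captured signal lay below input at the starts of 51 of the 57 lower genes (89.5%), where 79.2% of all genes in the RNA test did. At Leng8 the start window held 0.0431 RPKM in naive and 0.0246 in threat captured samples and 0.374 in input. Its body held 0.264 (SD 0.0172, n = 3) in naive and 0.299 (SD 0.0221, n = 3) in threat samples, a log2 difference of 0.10 (limma, adjusted p = 0.217). Snhg11 held 0.312 and 0.301 RPKM over its body and Col5a1 0.433 and 0.471, and neither difference passed (adjusted p = 0.766 and 0.214). The median body difference was 0.01 for the 57 genes, 0.05 for all genes that fell and -0.00197 for those that rose, beside 0.03 for all genes tested.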

How the data were processed

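The authors deposited 1 table of FPKM per gene for 34 RNA libraries and 1 table of RPKM per 500-base bin for 26 captured and input DNA samples. Per the labels' protocols, RNA had RIN above 8 and was made into directional polyA libraries. Tools listed in the submitters' processing notes are Bowtie, edgeR, DESeq2 and TopHat 1.4.0, and the builds are rn5 and mm10, with no role for each. Both tables carry a mouse build in their titles, but their coordinates are those of rat rn5. Whether counting used strand, and how FPKM was scaled, are not given in the sources used here.

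From these values, log2(FPKM + 1) was fitted with limma 3.58.1 (R 4.3.3) with a trended prior over all 34 libraries and 5 group means (29 residual degrees of freedom), and again with naive 1 to 4 and naive 5 to 9 as separate groups (28). Benjamini-Hochberg adjustment ran over the 13153 genes tested, and calls are at 0.05. A log2(FPKM + 1) difference understates the change of low genes. RPKM bins overlapping a gene body, or within 1000 bases of its start, were averaged (5805202 bins used, 21 shorter bins left out) and log2(mean + 0.25) was tested with limma. FPKM and RPKM carry no counts, so no counting interval is given. The RNA fit was also run on simulated data with independent noise and no split between naive libraries. That run cannot judge how the naive split affects the calls.

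The members and lists were chosen with earlier results of these data known. The naive split follows those results and the order of the table's columns, and no label names it. Genes named are all rises and the 16 largest falls called against both naive sets, the 12 largest rises and 8 largest falls against all 9 naive libraries, and up to 4 members of each list with the lowest p. Others are said to be named after their values were seen or to complete a count. Lists were matched by symbols that occur once (1196 of 1293 list genes found, 23 by an older symbol). Promoter sequences are RefSeq's on GRCr8, where 8095 of 12598 tested genes with a symbol of their own matched. Alternatives were a pseudocount of 0.1, no level filter, a filter of 5 FPKM, median-ratio, quantile and equal-sum scaling, array weights, a replicate block, the 15 libraries alone, each naive set alone and leaving out each library.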

Additional observations from a re-analysis of the deposited data

Results flagged for a closer look

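Dixon's gap test was run on 120 pairs of gene and group (40 genes in 3 groups), and in 6 of them 1 library lay far from the others. Chance alone flags about 1 in 20 pairs where pairs are independent. The 120 pairs share libraries, so that rate cannot say whether 6 is more than chance gives. Naive replicate 6 was the high library for 4 of them, with 1.95 FPKM for Tnnt2, 24.3 for Htr2c, 24.5 for Cadps2 and 3.59 for GRIN3A. Naive replicate 1 was high for Crabp1 at 17.2 FPKM, and place 24 h replicate 4 was low for Crym at 64.5 FPKM. All 6 genes were among the largest rises in threat 24 h.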

How the results depend on the processing

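Single genes were followed across settings only where the naming rules or a later choice had picked them. In none of the settings run did a called value of these genes change sign. The count against all 9 naive libraries, 1327, was 389 in a fit of the 15 libraries alone, 3973 with naive 1 to 4 only and 67 with naive 5 to 9 only. Leaving out 1 library gave 769 (without threat replicate 5) to 1836 (without naive replicate 6), with 779 without naive replicate 4 and 792 without naive replicate 3. Such fits gave 243 to 865 higher and 520 to 971 lower genes, 2809 to 4023 calls against naive 1 to 4 and 22 to 95 against naive 5 to 9. They gave 0 between threat and place in all 20 fits (limma). The count against naive 5 to 9, 67, was 137 with equal FPKM sums, 34 in the fit of the 15 libraries alone and 627 with array weights. The 64 genes called against both sets became 135, 34 and 382 under the same settings, of which 59, 27 and 63 were among the 64. Leaving out 1 library gave 22 to 85, with 0 to 19 rises and 21 to 66 falls. Same-numbered naive and threat replicates had correlations of deviations from -0.434 to 0.218. These few values cannot settle whether equal numbers pair samples. With the replicate block 907 genes were higher and 972 lower. For methylation, the gene body count of 1 became 0 at 0.5 RPKM, 0 over RNA-tested genes at 0.1 RPKM and 22 with the replicate block, and the start count of 0 became 16 with that block. Leaving out 1 sample gave 0 to 5 bodies and 0 to 9 starts. Of the calls of the single genes followed, naive 5 to 9 only ended 85, the fit of the 15 libraries alone 59, quantile normalization 32 and equal sums 23.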
